A study of Mus musculus with 6 samples.

Results

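Wnt pathway genes were followed in mouse embryonic salivary glands cultured over 72 hours, either as controls or in the presence of the growth factor TGF-β1. The members were taken by gene symbol from the platform annotation. They comprise the Wnt ligands, the Fzd receptors, the Dkk and Sfrp antagonists and the Rspo agonists, with Lrp5, Lrp6, Ror1, Ror2, Wif1, Frzb, Notum, Cthrc1, Axin2, Nkd1, Nkd2 and Lef1. That gave 53 of the 19505 genes compared: 19 ligands, 4 R-spondins, 14 receptors, 11 antagonists, 1 cofactor and 4 feedback targets or nuclear factors. Tcf7, which the rule also names, was not analysed here.

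The labels give the stage of the embryos as T13, and total RNA of each sample was hybridised to 1 Affymetrix array. There were 3 control arrays (controls 1 to 3), from glands treated with nothing, and 3 arrays from glands treated with TGF-β1 (TGF-β1 1 to 3). Strain, genotype, the type of salivary gland, the TGF-β1 dose and whether replicates came from separate animals or cultures were not stated in the labels. The p-values therefore measure no more than the spread among these samples, and that spread may be technical. The values are RMA log2 expression values, where 1 unit is a doubling of array signal. A value can be compared between arrays for 1 gene but not between genes, with a limit for control 3 given below. Places above or below the median of all genes describe array signal only. Whole glands cannot tell fewer cells of a type from less RNA per cell.

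Wnt proteins are secreted lipid-modified ligands. They bind Frizzled receptors together with Lrp5 or Lrp6, which keeps β-catenin from being degraded and lets it act with TCF and LEF factors on target genes, or with Ror receptors in β-catenin-independent signalling. R-spondins keep the receptors at the cell surface, Dickkopf proteins block Lrp5 and Lrp6, and secreted Frizzled-related proteins and Wif1 bind the ligands. In the developing salivary gland, Wnt signalling takes part in the exchange between mesenchyme and epithelium and in forming the ducts.

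Control 3 stood apart from the other arrays. Its values over all genes had an interquartile range of 2.02, against 3.13 to 3.21 on the other arrays. With this narrower scale and the low correlations given next, its value is hard to compare with other arrays even for 1 gene. Across the 53 members its Pearson correlation with the other arrays was 0.097 to 0.162, against 0.550 to 0.601 across all genes, while the other 5 arrays correlated with each other at 0.894 to 0.986 across the members and at 0.948 to 0.990 across all genes (correlations across genes, which are not independent replicates). Of the 29 members whose mean over those 5 arrays lay below the median of all genes, 28 (96.6%) were higher in control 3 than in the mean of controls 1 and 2, as were 89.8% of all such genes. Of the 24 members above that median, 15 (62.5%) were lower in control 3, as were 68.5% of all such genes. Lef1, a nuclear partner of β-catenin, lay furthest above the other controls, by 2.98, and Lrp6, a co-receptor, was lower by a difference of -5.32. Gapdh, a glycolytic enzyme that every cell uses, was at 6.21 in control 3 and at 11.87 to 11.98 elsewhere. The salivary acinar marker Aqp5, a water channel, was at 8.33, 8.25 and 9.12 in controls 1 to 3. In TGF-β1 1 to 3 Aqp5 was at 9.38, 9.33 and 9.40. Bhlha15, an acinar transcription factor, was at 6.33, 5.77 and 6.43 in the controls and at 9.20, 8.21 and 9.27 in the TGF-β1 arrays. TGF-β1 3 stood apart to a lesser degree. Across all genes it correlated with the 4 arrays other than control 3 at 0.948 to 0.953, and those 4 with each other at 0.974 to 0.990. Across the members these ranges were 0.894 to 0.937 and 0.913 to 0.986.

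**Figure D1:**
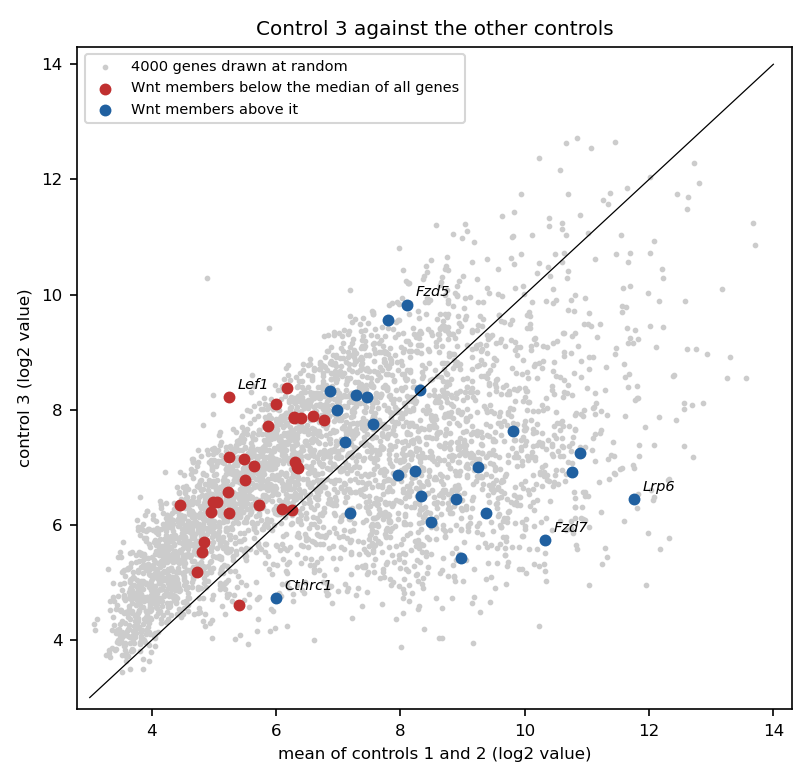
Log2 value in control 3 (vertical axis) against the mean of controls 1 and 2 (horizontal axis), for the Wnt members below (red) and above (blue) the median of all genes and for 4000 genes drawn at random (grey); the line marks equal values. Red points lie above the line except 1, and Lrp6 and Fzd7 lie far below it.

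Several fits are therefore given side by side. The unweighted limma fit of the 6 arrays called 0 members and 0 of all genes (0%) at an adjusted p under 0.05; at an unadjusted p under 0.05 it held 1 member, Cthrc1, and 389 genes (1.99%). The array-weighted limma fit, which estimates the reliability of each array and gave control 3 a weight of 0.0338 and TGF-β1 3 one of 0.398 against 1.65 to 4.52 for the others, called 7 members, 13.2% of them, against 6.88% of all genes; at an unadjusted p under 0.05 it held 14 members and 20.5% of all genes. The unweighted fit without control 3 and TGF-β1 3 called 5 members against 2.59% of all genes. That fit leaves out the arrays of lowest weight, so it largely repeats the array-weighted fit and is not separate support for its calls. "Rose" and "fell" are used only of genes that passed the array-weighted fit. Weights are treated there as known, although their estimation stopped before its convergence tolerance, so its p-values are smaller than they should be.

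In the array-weighted fit 3 members were higher in the TGF-β1 arrays (3.45% of all genes were) and 4 were lower (3.44% of all genes). Cthrc1, Sfrp1 and Fzd8 rose, and Rspo3, Ror2, Fzd1 and Sfrp4 fell; 46 members did not pass. Of the 7, Cthrc1, Ror2 and Rspo3 had all 3 TGF-β1 arrays on 1 side of controls 1 and 2, as had 25.2% of all genes. Cthrc1 alone of the 7 also had non-overlapping groups with control 3 included, as had 11.6% of all genes. In the other 4 of the 7, TGF-β1 3 lay apart from TGF-β1 1 and 2, on the side of the controls. The 7 were picked by a fit of the same arrays, so these positions are not separate support for the calls. The median difference over the 53 members was -0.08 (0.01 over all genes) with array weights and -0.37 (-0.14 over all genes) without. Between these fits the sign of the difference turned in 17 of the 53 members (32.1%) and in 42% of all genes.

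The calls changed when arrays were left out. With array weights, 0 members passed when control 1, control 2, TGF-β1 1 or TGF-β1 2 was left out (0, 0, 8 and 12 genes of the whole table), Cthrc1, Ror2 and Rspo3 passed without control 3 (2.79% of all genes), and Cthrc1 and Sfrp4 passed without TGF-β1 3 (1.92%). Once an array is left out, the weights cannot tell apart the arrays remaining in its group. Control 3 then had the same weight as the remaining control 1 or 2, and TGF-β1 3 the same as TGF-β1 1 or 2. Fits that kept control 3 or TGF-β1 3 in this way cannot show whether the calls rested on the array left out. After quantile normalization Cthrc1 and Ror2 passed (2.31% of all genes), and after median centring Cthrc1 (1.36%).

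**Figure D2:**
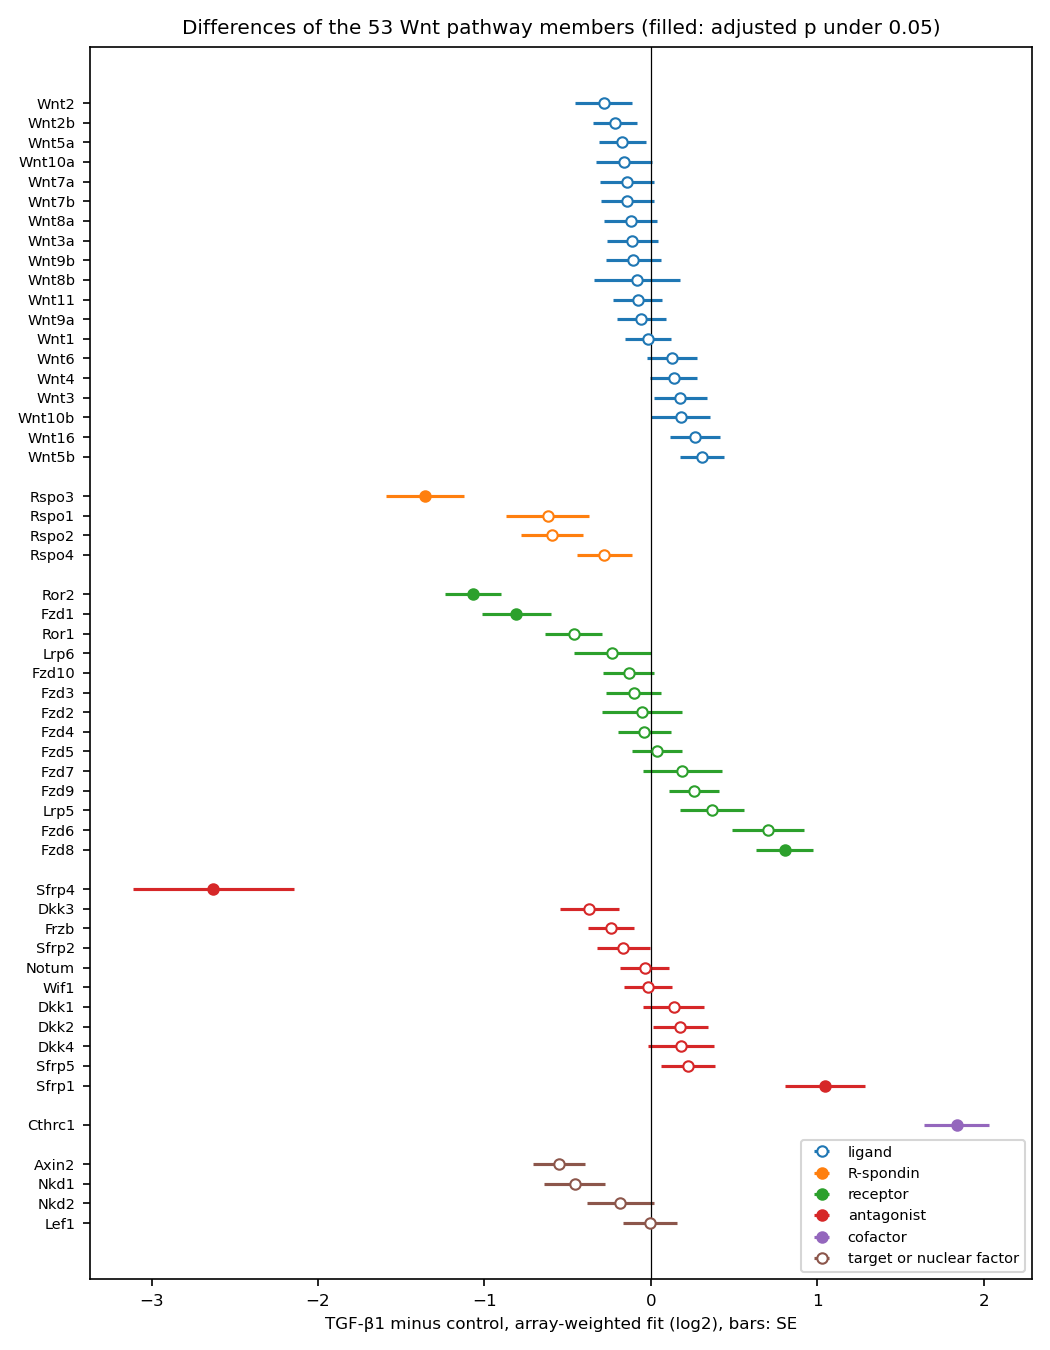
Difference between the TGF-β1 and control arrays in the array-weighted fit (horizontal axis, log2) for the 53 members, grouped by role; bars are standard errors and filled points passed at an adjusted p under 0.05. The 19 ligands lie between -0.28 and 0.31, and the points furthest from 0 are Sfrp4 at -2.63 and Cthrc1 at 1.84.

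No ligand passed. The 19 Wnt genes, which encode the secreted signals themselves, differed by -0.28 to 0.31 with array weights, 13 of them below 0, with a median of -0.08; 16 of them lay below the median of all genes, the 3 others being Wnt7a, Wnt9a and Wnt9b. A low array value does not say whether a transcript was present, and no detection measure was used here. The median over the ligands was 5.80, 6.11 and 6.99 in controls 1 to 3 and 5.92, 5.99 and 5.87 in TGF-β1 1 to 3, so that control 3 was the high array and the other 5 overlapped.

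Wnt5b (Entrez gene 22419), a ligand of the β-catenin-independent branch, had the smallest p among the ligands. It was at 6.23, 6.27 and 6.27 in controls 1 to 3 and at 6.51, 6.65 and 6.75 in TGF-β1 1 to 3. All TGF-β1 arrays were above all controls, and control 3 here matched the other controls. The difference was 0.38 ± 0.29 (SE) unweighted and 0.31 ± 0.13 with array weights (limma adjusted p = 0.223).

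Wnt2, Wnt2b and Wnt5a, 3 further ligands, had all TGF-β1 arrays below all controls. Wnt2b was at 6.09, 6.11 and 6.27 in the controls and at 5.92, 5.81 and 5.96 in the TGF-β1 arrays, a difference of -0.22 ± 0.13 (limma adjusted p = 0.417). Wnt5a was at 5.17, 5.28 and 6.58 against 5.14, 5.0 and 5.02, where controls 1 and 2 stood 0.03 or more above the highest TGF-β1 array and control 3 made most of the gap between the group means. With Axin2, Frzb, Cthrc1 and Wnt5b, 7 members had groups that did not overlap, 2 higher and 5 lower in TGF-β1 (5.8% and 5.78% of all genes, 11.6% together); without control 3 there were 13, against 25.2% of all genes.

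Among the R-spondins, Rspo3 fell and the other members had negative differences that did not pass. Rspo3 (Entrez gene 72780), a secreted agonist that binds Lgr receptors, was at 9.11, 9.65 and 6.21 in controls 1 to 3 and at 7.89, 8.55 and 8.19 in TGF-β1 1 to 3. Controls 1 and 2 were above every TGF-β1 array and control 3 was below every one. Its difference was therefore -0.11 ± 0.86 in the unweighted fit and -1.36 ± 0.23 with array weights (limma adjusted p = 0.0053), which is 2.56-fold lower.

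Rspo3 also passed with array weights when control 3 was left out (-1.26 ± 0.24, limma adjusted p = 0.0411), but not without both control 3 and TGF-β1 3 (-1.16 ± 0.27, adjusted p = 0.0753). Rspo2, a further agonist, differed by -0.59 ± 0.19 (limma adjusted p = 0.0858), Rspo1 by -0.62 ± 0.25 (adjusted p = 0.180) and Rspo4 by -0.28 ± 0.16 (adjusted p = 0.391). The R-spondin family thus had negative values in 4 of 4 members, with 1 call. In the same fit 35 of the 53 Wnt members and 9578 of the 19505 genes had negative values.

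Of the receptors, Ror2 and Fzd1 fell and Fzd8 rose, and 11 of the 14 did not pass. Ror2 (Entrez gene 26564), a receptor tyrosine kinase of the β-catenin-independent branch, was at 8.11, 8.55 and 6.51 in controls 1 to 3 and at 7.41, 7.22 and 7.50 in TGF-β1 1 to 3. The TGF-β1 arrays lay close together, below controls 1 and 2 and above control 3. The difference was -0.34 ± 0.55 unweighted, -1.07 ± 0.17 with array weights (limma adjusted p = 0.0037), -0.97 ± 0.17 with array weights without control 3 (adjusted p = 0.0320) and -1.01 ± 0.19 without control 3 and TGF-β1 3 (adjusted p = 0.0451). After median centring its adjusted p was 0.0695. Ror1, the related receptor, differed by -0.46 ± 0.17 (adjusted p = 0.141) and unweighted by 0.10 ± 0.45.

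Fzd1 (Entrez gene 14362), a Frizzled receptor, was at 8.76, 9.03 and 6.44 in controls 1 to 3 and at 8.04, 8.12 and 9.35 in TGF-β1 1 to 3. TGF-β1 3 was the highest of all 6 arrays, while TGF-β1 1 and 2 were below controls 1 and 2, so the groups overlapped. The difference was -0.81 ± 0.20 with array weights (limma adjusted p = 0.0369) and 0.42 ± 0.75 unweighted, the opposite sign. It was -0.82 ± 0.16 without control 3 and TGF-β1 3 (adjusted p = 0.0497).

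Fzd8 (Entrez gene 14370), another Frizzled receptor, was at 6.43, 6.16 and 7.09 in the controls and at 7.16, 6.96 and 6.23 in the TGF-β1 arrays. TGF-β1 3 lay between controls 1 and 2, and control 3 lay between TGF-β1 1 and 2. With array weights the difference was 0.81 ± 0.17 (limma adjusted p = 0.0161), unweighted 0.22 ± 0.41, and without control 3 and TGF-β1 3 it was 0.76 ± 0.17 (adjusted p = 0.0651). Fzd6 differed in the same direction by 0.71 ± 0.22 without passing (adjusted p = 0.0798).

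The remaining 7 Frizzled genes differed by -0.13 to 0.26. Fzd7 was at 10.42, 10.24 and 5.73 in the controls and at 10.38, 10.79 and 9.36 in the TGF-β1 arrays, and Fzd2 at 10.88, 10.91 and 7.25 against 10.89, 10.98 and 9.24. In both genes control 3 was lowest and TGF-β1 3 next lowest, and the other 4 arrays lay within 0.54 (Fzd7) or 0.105 (Fzd2) of each other. The difference of Fzd2 was -0.05 ± 0.24 with array weights and 0.69 ± 1.04 unweighted. The co-receptor Lrp6 was at 11.80, 11.73 and 6.45 against 11.53, 11.59 and 10.54 (-0.23 ± 0.23 with array weights, limma adjusted p = 0.654, and 1.22 ± 1.38 unweighted), and Lrp5, the related co-receptor, differed by 0.37 ± 0.19 (adjusted p = 0.321).

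The promoters of the receptors that fell, and of the target gene Axin2, are shown here because motifs for the TCF/LEF factors of the Wnt pathway and the Smad factors of the TGF-β pathway can be looked up in them. Each is the 250 bases before an annotated start, 5′ to 3′ on the gene's strand, from RefSeq (GRCm38.p6): Fzd1 at chr5:4758217-4758466 (minus strand), Ror2 at chr13:53286125-53286374 (minus strand) and Axin2 at chr11:108920099-108920348 (plus strand). Capitals mark matches to CTTTGA, the core of TCF/LEF sites, or CAGAC, the core of Smad sites, on either strand; the motifs do not overlap.
Fzd1: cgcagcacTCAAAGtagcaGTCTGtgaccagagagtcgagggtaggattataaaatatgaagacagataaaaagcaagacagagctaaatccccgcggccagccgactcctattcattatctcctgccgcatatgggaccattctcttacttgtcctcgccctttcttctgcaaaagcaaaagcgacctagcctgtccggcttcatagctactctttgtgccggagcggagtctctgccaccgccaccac
Ror2: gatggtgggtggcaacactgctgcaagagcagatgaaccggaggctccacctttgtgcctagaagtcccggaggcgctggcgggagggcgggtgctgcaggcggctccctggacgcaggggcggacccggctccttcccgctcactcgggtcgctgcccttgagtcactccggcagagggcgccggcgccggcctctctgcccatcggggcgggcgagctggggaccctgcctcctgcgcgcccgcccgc
Axin2: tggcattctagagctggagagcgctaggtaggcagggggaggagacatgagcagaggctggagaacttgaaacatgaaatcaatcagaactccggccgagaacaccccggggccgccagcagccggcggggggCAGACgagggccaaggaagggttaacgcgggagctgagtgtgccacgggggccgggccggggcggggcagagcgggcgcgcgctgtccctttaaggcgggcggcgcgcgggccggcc
In this window Fzd1 held 1 match to each motif, Axin2 held 1 Smad core, and Ror2 held neither. Sequences were found for 35 of the 53 members. Of their 41 annotated starts, 7 (17.1%) held the TCF/LEF core against 13.8% of 32851 starts in all, and 18 (43.9%) held the Smad core against 42.2%. These are shares close to those of promoters at large, and a match is a description of letters only.

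**Figure D3:**
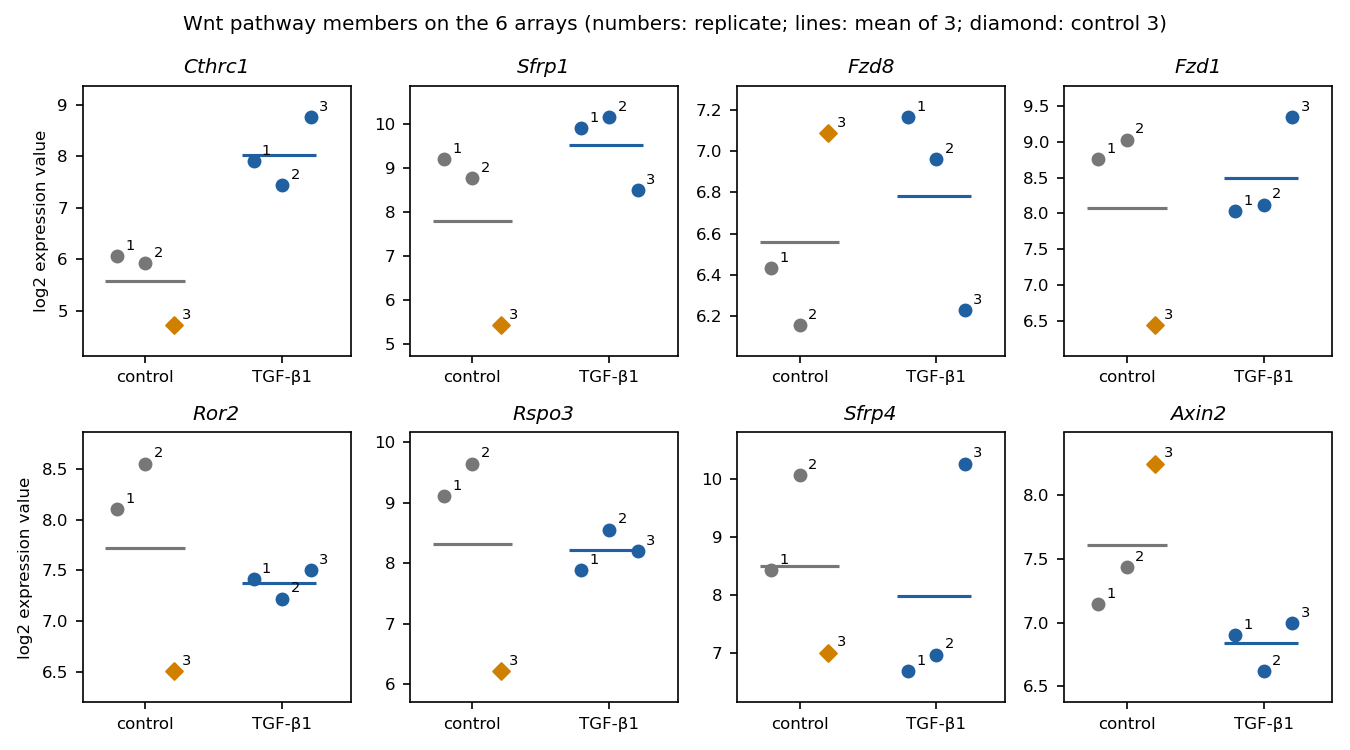
Log2 values on each array (vertical axis, a separate scale in each panel) for the 7 members that passed the array-weighted fit and for Axin2; grey points are controls 1 and 2, the orange diamond is control 3, blue points are the TGF-β1 arrays, numbers give the replicate and lines the unweighted group means. Cthrc1 and Axin2 have groups that do not overlap, and in Sfrp1, Fzd8, Fzd1 and Sfrp4 the point of TGF-β1 3 lies apart from TGF-β1 1 and 2.

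Of the 11 antagonists, Sfrp1 rose and Sfrp4 fell, 2 secreted Frizzled-related proteins with opposite directions. Sfrp1 (Entrez gene 20377) was at 9.19, 8.76 and 5.43 in controls 1 to 3 and at 9.90, 10.15 and 8.49 in TGF-β1 1 to 3. TGF-β1 1 and 2 were above all controls, and TGF-β1 3 was below controls 1 and 2. The difference was 1.05 ± 0.24 with array weights (limma adjusted p = 0.0239), 1.72 ± 1.01 unweighted (adjusted p = 0.776) and 1.05 ± 0.19 without control 3 and TGF-β1 3 (adjusted p = 0.0424).

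Sfrp4 (Entrez gene 20379) had the largest difference of any member with array weights, -2.63 ± 0.48 (limma adjusted p = 0.0080), or 6.19-fold lower. It was at 8.42, 10.06 and 7.0 in the controls and at 6.68, 6.97 and 10.26 in the TGF-β1 arrays. TGF-β1 3 was the highest of the 6 arrays and controls 1 and 2 differed from each other by more than the group means did. The difference was -0.52 ± 1.12 unweighted, -2.42 ± 0.46 without control 3 and TGF-β1 3 (adjusted p = 0.0483), and with a trended and robust prior the array-weighted fit gave an adjusted p of 0.143.

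The other 9 antagonists differed by -0.37 to 0.23. Sfrp2, another protein of this kind and above the median of all genes, was at 8.22, 8.40 and 8.34 in the controls and at 8.08, 8.26 and 8.92 in the TGF-β1 arrays, with overlapping groups (-0.17 ± 0.16 with array weights, limma adjusted p = 0.637, and 0.10 ± 0.34 unweighted). Dkk3, a divergent Dickkopf protein, was lower in the 3 TGF-β1 arrays (7.36, 7.92 and 7.82) than in controls 1 and 2 (7.98 and 7.94) but not than in control 3 (6.87), with a difference of -0.37 ± 0.18 (adjusted p = 0.274) and of 0.11 ± 0.41 unweighted. Notum, an enzyme that removes the lipid from Wnt proteins and is itself a target gene, was at 6.65, 6.89 and 7.83 against 6.82, 6.80 and 6.48 (-0.04 ± 0.14, adjusted p = 0.932), a value near 0.

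Cthrc1 (Entrez gene 68588), a secreted protein that binds Wnt proteins together with Frizzled and Ror2 receptors, rose and was the member of smallest p. It was at 6.06, 5.93 and 4.73 in controls 1 to 3 and at 7.90, 7.45 and 8.76 in TGF-β1 1 to 3. Every TGF-β1 array was above every control, by 1.39 or more. The group means were 5.57 ± 0.73 and 8.04 ± 0.67 (SD, n = 3 each).

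The difference of Cthrc1 was 1.84 ± 0.19 with array weights (limma adjusted p = 4.29e-04), which is 3.58-fold, 1.80 ± 0.21 with array weights without control 3 (adjusted p = 0.0115) and 1.68 ± 0.19 without control 3 and TGF-β1 3 (adjusted p = 0.0157). Unweighted it was 2.46 ± 0.51 (adjusted p = 0.776). With each array left out in turn it lay between 1.64 and 2.47, although it did not pass without control 1, control 2, TGF-β1 1 or TGF-β1 2.

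**Figure D4:**
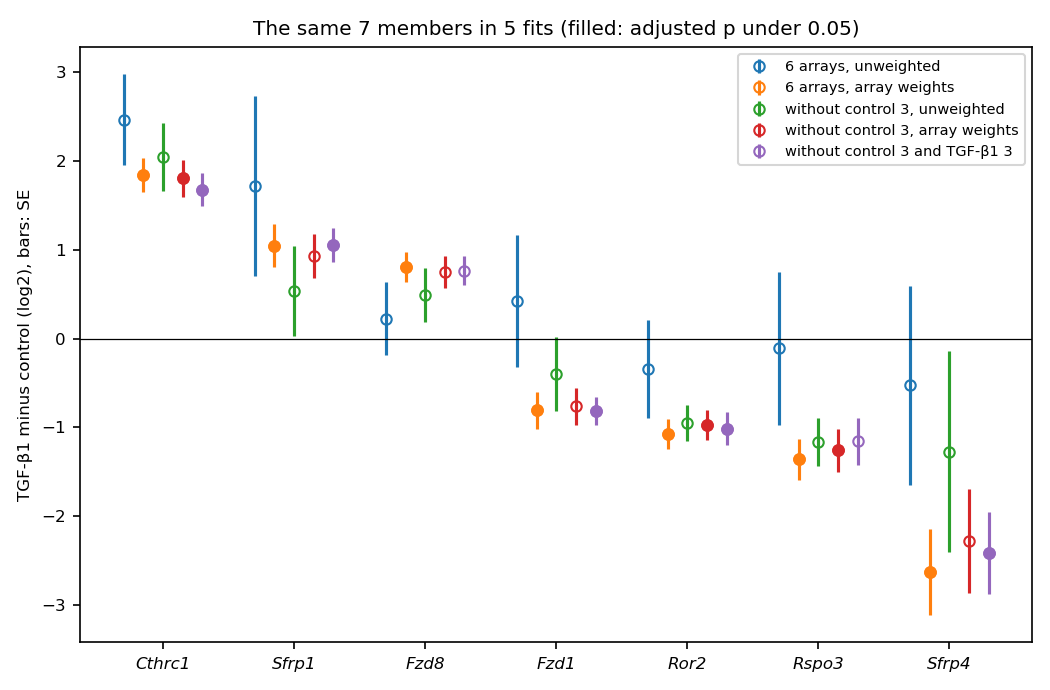
Differences (vertical axis, log2) of the 7 members that passed the array-weighted fit, in 5 fits; bars are standard errors and filled points passed at an adjusted p under 0.05. Cthrc1, Sfrp1 and Fzd8 are above 0 in each fit, Ror2, Rspo3 and Sfrp4 are below 0 in each, and Fzd1 changes sign in the unweighted fit of the 6 arrays.

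The feedback targets and Lef1 did not pass. Axin2 (Entrez gene 12006), a scaffold of the β-catenin destruction complex that is widely read as a target of Wnt signalling, was at 7.15, 7.44 and 8.25 in controls 1 to 3 and at 6.90, 6.62 and 7.0 in TGF-β1 1 to 3. All TGF-β1 arrays were below all controls. The difference was -0.55 ± 0.16 with array weights (limma adjusted p = 0.0582), -0.77 ± 0.38 unweighted (adjusted p = 0.776) and -0.53 ± 0.18 without control 3 and TGF-β1 3 (adjusted p = 0.186).

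Nkd1, a feedback inhibitor, was at 7.16, 7.76 and 8.23 against 7.11, 7.10 and 7.81, with overlapping groups (-0.46 ± 0.18, limma adjusted p = 0.183). Nkd2, its relative, was at 10.98, 10.53 and 6.91 against 10.35, 10.67 and 10.32 (-0.18 ± 0.20, adjusted p = 0.692). Unweighted, the difference of Nkd2 was 0.97 ± 1.01, with the opposite sign. Lef1 was at 5.13 and 5.36 in controls 1 and 2, 8.22 in control 3 and 5.29, 5.36 and 5.25 in TGF-β1 1 to 3. The 5 arrays other than control 3 lay within 0.23 of each other, and its difference moved from -0.94 ± 0.80 unweighted to -0.004 ± 0.16 with array weights.

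Other genes of the pathway were taken from 7 lists with 72 genes, of which 68 were measured; the β-catenin gene Ctnnb1, Ccnd1, Dvl2 and Rnf43 were not analysed here. With array weights 2 of the 68 rose, 4 fell and 62 did not pass (8.82% called, against 6.88% of all genes), with a median difference of -0.01. In the unweighted fit 0 passed and Prickle2 was the 1 gene at an unadjusted p under 0.05. None of the 16 measured genes of β-catenin and its destruction complex and none of the 13 nuclear partners passed, with medians of 0.02 and 0.03, nor did Porcn and Wls, which modify and carry Wnt ligands out of the cell.

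Lgr6, a receptor of R-spondins, fell along with Rspo3. It was at 7.88, 7.86 and 6.86 in controls 1 to 3 and at 6.89, 6.72 and 6.50 in TGF-β1 1 to 3. Controls 1 and 2 were above every TGF-β1 array, and control 3 lay just under TGF-β1 1. The difference was -1.05 ± 0.14 with array weights (limma adjusted p = 0.0017), -0.83 ± 0.39 unweighted and -1.07 ± 0.15 without control 3 and TGF-β1 3 (adjusted p = 0.0232). The related receptors Lgr4 and Lgr5 differed by -0.29 ± 0.17 (adjusted p = 0.392) and -0.14 ± 0.16 (adjusted p = 0.697), and Znrf3, a ligase that removes Frizzled receptors, by 0.28 ± 0.21 (adjusted p = 0.515). The signs of Lgr4 and Znrf3 turned in the unweighted fit, to 0.05 ± 0.56 and -0.16 ± 0.47. Lgr5 was at 7.25, 7.56 and 9.27 against 7.41, 7.25 and 7.27, with control 3 alone far from the rest.

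In the planar polarity branch, Prickle2 and Invs fell, Celsr2 rose and 12 of 15 genes did not pass. Prickle2, a cytoplasmic polarity protein, was at 7.91, 8.14 and 7.91 in the controls and at 7.13, 7.24 and 7.20 in the TGF-β1 arrays. Its groups were far apart compared with their spread, and control 3 sat with the other controls. The difference was -0.90 ± 0.14 with array weights (limma adjusted p = 0.0032), -0.80 ± 0.29 unweighted (adjusted p = 0.776) and -0.84 ± 0.15 without control 3 and TGF-β1 3 (adjusted p = 0.0429). Celsr2, a polarity cadherin, differed by 0.79 ± 0.16 (adjusted p = 0.0128) and Invs, a ciliary protein, by -0.68 ± 0.18 (adjusted p = 0.0431), where leaving out control 3 and TGF-β1 3 gave 0.274. Unweighted, Celsr2 differed by 0.19 ± 0.44 and Invs by -0.50 ± 0.39. Celsr2 was at 7.25, 7.06 and 8.30 against 7.89, 8.04 and 7.23, and Invs at 6.96, 7.46 and 6.54 against 6.59, 6.83 and 6.03. In both the groups overlapped.

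Of 7 further target genes, Tnfrsf19 fell and 6 did not pass. Tnfrsf19, a TNF receptor family member, was at 8.70, 8.61 and 8.33 in the controls and at 7.89, 7.83 and 8.11 in the TGF-β1 arrays. The groups did not overlap, and the difference was -0.75 ± 0.13 with array weights (limma adjusted p = 0.0071) and -0.79 ± 0.14 without control 3 and TGF-β1 3 (adjusted p = 0.0406). Unweighted it was -0.60 ± 0.30. Myc, a growth-promoting transcription factor, was at 11.10, 11.07 and 6.72 against 10.64, 10.31 and 10.27, with a difference of -0.54 ± 0.20 (adjusted p = 0.138) and the opposite sign unweighted (0.78 ± 1.13).

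Among 11 further extracellular modulators, Shisa2, which holds Frizzled receptors back inside the cell, rose. It was at 7.74, 7.67 and 7.99 in the controls and at 8.27, 8.34 and 8.30 in the TGF-β1 arrays, all TGF-β1 arrays above all controls. The difference was 0.60 ± 0.13 (limma adjusted p = 0.0190), and the 4 arrays other than control 3 and TGF-β1 3 gave an adjusted p of 0.0829. Unweighted it was 0.50 ± 0.29. Sostdc1, a secreted antagonist of Wnt and BMP, differed by 0.41 ± 0.16 (adjusted p = 0.175) and Kremen1, a receptor of Dickkopf proteins, by -0.10 ± 0.18 (adjusted p = 0.823). Sostdc1 was at 8.94, 8.41 and 8.35 against 8.96, 8.93 and 9.13 and Kremen1 at 9.20, 8.93 and 8.52 against 8.90, 9.06 and 7.85, with overlapping groups in both.

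**Figure D5:**
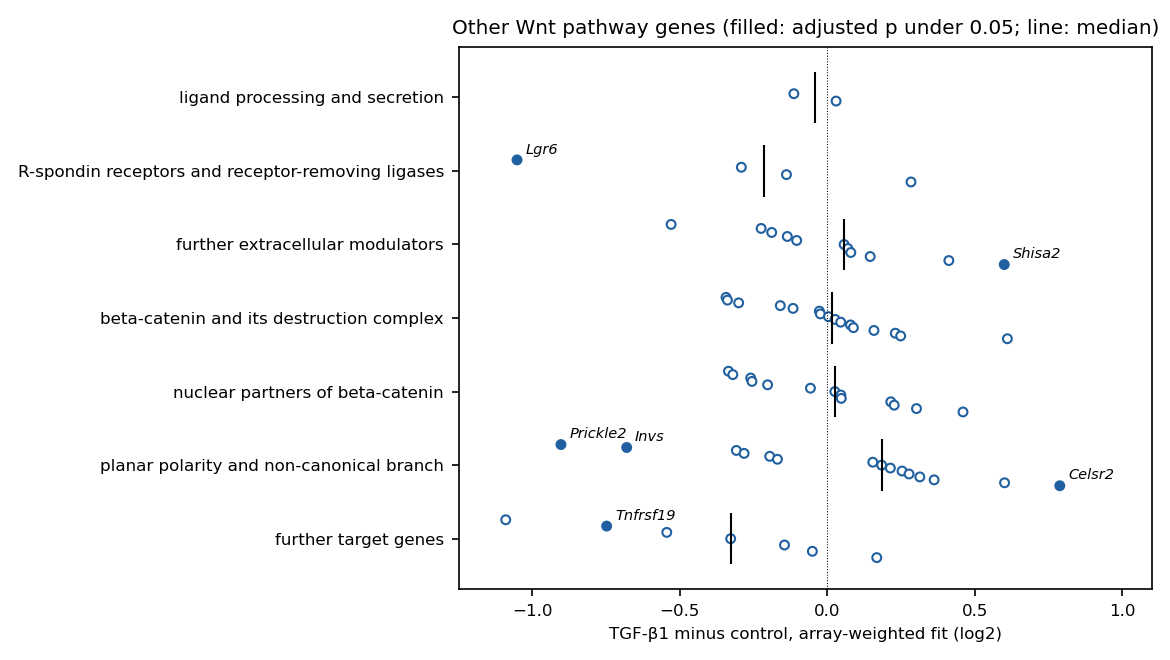
Difference in the array-weighted fit (horizontal axis, log2) for the 68 other pathway genes, in 7 lists; each point is a gene, filled where the adjusted p was under 0.05, and black lines are list medians. The 6 filled points are Lgr6, Shisa2, Prickle2, Invs, Celsr2 and Tnfrsf19.

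Cell type markers were read in the same fits, where array weights called 6.88% of all genes. Without control 3 that share was 2.79%, and in the unweighted fit without control 3 and TGF-β1 3 it was 2.59%. Of 9 mesenchyme markers 1 fell with array weights, Twist1, and 0 rose. The limma adjusted p of Twist1 was 0.0837 without control 3 and 0.0716 without control 3 and TGF-β1 3. With array weights 8 of the 9 mesenchyme markers had negative differences, as had 9578 of the 19505 genes. The median difference of these markers was -0.44 with array weights (0.005 over all genes). It was -0.42 without control 3 and TGF-β1 3 and 0.21 in the unweighted fit of the 6 arrays. Their median was 8.80 and 9.33 in controls 1 and 2, 7.25 in control 3 and 8.35, 8.23 and 9.06 in TGF-β1 1 to 3. Of 10 epithelial markers Epcam and Cldn3 rose, while Krt5, Krt14 and Krt19 had negative differences that did not pass. Without control 3, and without control 3 and TGF-β1 3, Cldn3 passed and Epcam did not (limma adjusted p = 0.0851 and 0.124). Of the 6 acinar markers all rose, and all 6 passed in both of those fits, with a median of 7.94, 6.19 and 7.20 in the controls and 10.25, 9.90 and 10.33 in the TGF-β1 arrays. Of 5 neuronal markers 4 rose, with a median of 6.71, 7.01 and 6.61 against 7.51, 7.79 and 7.89; 1 of them passed without control 3 and 0 without control 3 and TGF-β1 3. Of 6 endothelial markers 1 fell, Kdr, with a median of 5.34, 5.62 and 6.49 against 5.73, 5.69 and 6.84. Of the 3 Schwann cell markers 1 rose (Sox10) and of the 5 cartilage markers 1 rose (Cnmd), while 0 of 6 skeletal muscle and 0 of 4 macrophage markers passed. Kdr, Sox10 and Cnmd each passed also without control 3, and without control 3 and TGF-β1 3. The part of these cell types in the differences of the Wnt genes was not tested.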

How the data were processed

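The deposited table holds log2 expression values of 22206 probe sets on 6 arrays, made by the authors with RMA according to the submitters' processing notes; the RMA version and genome build are not stated there. The values were used as deposited. Of the probe sets, 19572 had 1 gene symbol in the platform annotation, 0 had several and 2634 were unnamed here; the brightest probe set stood for a gene, leaving 19505 genes. All 53 members had 1 probe set, and all were found by Entrez identifier in the RefSeq gene table with 0 differing symbols.

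TGF-β1 minus control was fitted with limma 3.58.1 in R 4.3.3 (lmFit, eBayes, two-sided; arrayWeights by REML with up to 1000 iterations), with Benjamini-Hochberg adjustment over all genes and a threshold of 0.05. Arrays have no depth; precision is limited by their number. The 53 members and the lists of other genes were chosen with earlier results of these data known, including that control 3 stands apart. All values were printed for members that passed the array-weighted fit or the fit without control 3 and TGF-β1 3, for fixed target genes, and for the member of smallest p in a class without these; of the other lists, for up to 3 genes per direction that passed and 6 fixed genes. Wnt2b, Wnt5a, Rspo1, Rspo2, Rspo4, Ror1, Fzd2, Fzd6, Fzd7, Lrp5, Lrp6, Sfrp2, Dkk3, Nkd2, Lgr4 and Znrf3 were chosen after their values were seen. Alternatives were quantile normalization, median centring, leaving out the dimmest genes (13003 kept), averaging probe sets, other priors, weights and thresholds, the replicate number as a block, and leaving out arrays.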

Additional observations from a re-analysis of the deposited data

How the results depend on the processing

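The 3 higher and 4 lower members of the array-weighted fit (6.88% of all genes called) became 1 and 1 after quantile normalization (2.31%), 1 and 0 after median centring (1.36%), 6 and 10 without the dimmest genes (33.4% of the 13003 kept), 0 and 0 with no weights (0%), and 1 and 3 at an adjusted p under 0.01 (2.76%). Array by array left out, they ranged from 0 to 1 and from 0 to 2. The 6 other pathway genes became 3, 3, 21, 0 and 3 under the same 5 settings, and ranged from 0 to 3 with an array left out. The largest array weight was 4.52 in the fit as reported, 3.37 with gene-by-gene weights and 17.1 without the dimmest genes; the cause was not tested. The unweighted fit called 0 members under its alternatives except without control 3 and TGF-β1 3, where it called 5. The members' median difference was -0.37 with no weights and lay between -0.49 and 0.075 with an array left out.

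Deviations of same-numbered arrays from their group means correlated at -0.066, -0.008 and -0.050 over all genes. Control 3 dominates the deviations of the control group, so these values cannot show whether replicate numbers paired the arrays. With the replicate number as a block, 4 members were higher, 6 lower, and 11 other pathway genes passed, against 12.8% of all genes. The weighted fit's default number of iterations gave the same counts, and its gene-by-gene method gave 2 higher and 3 lower (4.48% of all genes).

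With no weights, signs turned in 17 of the 53 members and 22 of the 68 other pathway genes, among them Fzd1 (0.42) and Myc (0.78). Lef1 was at 0.017 after quantile normalization, 0.084 after median centring, 0.016 with the block, 0.042 with gene-by-gene weights and 0.079 without control 3 and TGF-β1 3, and Notum at 0.0085, 0.071, 0.0027 (gene-by-gene) and 0.040 in the same settings other than the block. With an array left out, Fzd1 ranged from -0.76 to 0.54, Lef1 from -1.48 to 0.14, Nkd1 from -0.85 to 0.28, Notum from -0.57 to 0.14, Ror2 from -0.97 to 0.046, Rspo3 from -1.26 to 0.47, Sfrp4 from -2.28 to 0.21, Kremen1 from -0.81 to 0.17, Lgr5 from -1.07 to 0.055 and Myc from -0.75 to 1.61; the cause was not tested. These ranges include fits where control 3 or TGF-β1 3 was weighted the same as the only other array left in its group. The number of arrays and low array values without a detection measure limit what can be said of the ligands.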
